A study of Mus musculus with 23 samples.

Results

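The 7 genes described here encode proteins that read or clear extracellular nucleotides and adenosine: the ATP-gated channels P2rx4 and P2rx7, the UDP receptor P2ry6, the ectonucleotidase Entpd1 (CD39), the adenosine receptors Adora1 and Adora3, and the adenosine deaminase Ada. They were chosen by name from these families, leaving out P2ry12 and P2ry13, and all 7 were present among the 18876 genes of the count table and among the 18759 genes tested. RNA of CD11b+ cells, isolated with magnetic beads from both hippocampi of female mice, was sequenced in bulk. All mice were Slc11a2 fl/fl;Cx3cr1 Cre-ERT2+/- on a mixed 129S;C57BL/6J background, so the Control mice carried the floxed alleles and the Cre as well. Slc11a2 encodes DMT1, an iron importer. For knockdown (Slc11a2 KD), tamoxifen was gavaged at 4 mg a day over 5 days in mice 5 to 6 months old, Control mice were given corn oil, and cells were taken at 15 to 18 months. Cre was expressed from the Cx3cr1 locus, which is active in microglia and other myeloid cells, and tamoxifen and knockdown cannot be told apart. The groups were Control WT (n = 6), Control APP/PS1 (n = 6, without library 0010, taken to be the outlier that the study removed since it is absent from the study's heat map), Slc11a2 KD WT (n = 5) and Slc11a2 KD APP/PS1 (n = 5). APP/PS1 mice carry mutant human amyloid precursor protein and presenilin 1 transgenes and deposit amyloid-β.

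Cells release ATP and other nucleotides when they are stressed or damaged. In microglia, ATP opens P2X channels, of which P2X4 is a calcium-permeable channel found largely on lysosomes and P2X7 is a low-affinity channel linked to potassium efflux and inflammasome activation, while UDP acts through P2Y6, a receptor known for driving phagocytosis. CD39 degrades ATP and ADP to AMP, from which adenosine is made, and adenosine acts on receptors such as A1 and A3, which couple to inhibitory G proteins, until adenosine deaminase converts it to inosine.

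Total counts per library ran from 31128643 to 54872491 over the 22 libraries, with a median of 41460280. The labels call the cells microglia, and 9 of 10 microglial markers were in the table, with a summed level in CPM (reads of a gene relative to the library total, scaled by the TMM method) of 38702 to 45516 in Control WT and 29887 to 34428 in Control APP/PS1, and of 39456 to 45975 and 32821 to 37724 in the WT and APP/PS1 knockdown groups. The microglial sum was thus itself lower in APP/PS1, without overlap. Markers of other cells differed with the genotype as well. The summed level of 8 of 8 markers of border-associated macrophages ran from 216 to 477 CPM in Control WT and from 83.4 to 205 CPM in Control APP/PS1, and from 296 to 534 CPM and 127 to 213 CPM in the WT and APP/PS1 knockdown groups, with Lyve1 listed at 0 in at least 1 library. Oligodendrocyte markers (6 of 6) ran from 671 to 2719 CPM and 306 to 901 CPM in Control, and from 933 to 3532 CPM and 487 to 1198 CPM in Slc11a2 KD. Endothelial and mural markers (6 of 6) ran from 130 to 296 CPM in Control WT and from 85.7 to 111 CPM in Control APP/PS1, and from 122 to 236 CPM and 75.1 to 126 CPM in Slc11a2 KD. Of these, Flt1 went the other way, with means of 17.6 and 41.3 CPM in Control WT and APP/PS1. In Slc11a2 KD its means were 16.2 and 25.5 CPM, while all the other markers of this list had lower means in APP/PS1. Choroid plexus markers (8 of 8) reached 949 CPM in a Control WT library but at most 4.78 CPM in Control APP/PS1, where Kcnj13 and Clic6 were at 0, and at most 365 and 118 CPM in the WT and APP/PS1 knockdown groups. Neutrophil markers (7 of 7) ran from 86.3 to 321 CPM in Control WT and from 20.2 to 93.9 CPM in Control APP/PS1, and from 94.7 to 502 CPM and 41.0 to 143 CPM in the WT and APP/PS1 knockdown groups, with Ly6g at 0 in at least 1 library. Monocyte markers (6 of 6) ran from 29.4 to 98.5 CPM and 19.4 to 40.1 CPM in Control, and from 25.9 to 85.4 CPM and 20.9 to 78.2 CPM in Slc11a2 KD, with Vcan at 0 in at least 1 library. The summed astrocyte markers (6 of 6) overlapped between the genotypes, at 113 to 693 CPM and 141 to 574 CPM in Control and 109 to 478 CPM and 91.3 to 659 CPM in Slc11a2 KD. Among them, the mean of Gfap was 3.68 CPM in Control WT and 55.1 CPM in Control APP/PS1, and 4.56 and 50.4 CPM in Slc11a2 KD, while that of Slc1a3, the most abundant, was 434 and 299.6 CPM in Control and 195 and 203 CPM in Slc11a2 KD. Fgfr3 was below 1 CPM in the mean of every group, at 0.907 and 0.331 CPM in Control. Neuronal markers (6 of 7 in the table) summed to between 1.78 and 11.5 CPM in all groups. T and NK cell markers (6 of 8) overlapped between the genotypes, at 3.37 to 15.7 and 1.97 to 5.35 CPM in Control. In Slc11a2 KD they were 4.17 to 8.02 and 3.10 to 6.29 CPM. B and plasma cell markers (6 of 6) also overlapped, at 12.7 to 76.9 and 11.3 to 17.6 CPM in Control. In Slc11a2 KD they were 19.5 to 37.4 and 11.4 to 180 CPM, the highest in APP/PS1 library 0023. The part of these other cells in the results below was not tested, and in bulk RNA fewer cells of a type and less RNA per cell cannot be told apart. Over the whole gene, which includes exons outside the floxed part, Slc11a2 itself had a mean ± SD of 35.1 ± 5.13 (Control) and 34.2 ± 4.75 CPM (knockdown) in WT, which differed by less than the SD, and of 43.2 ± 3.93 and 56.5 ± 13.5 CPM in APP/PS1, where the knockdown mean was the higher.

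P2rx7 and P2rx4 are neighbours. On GRCm39, P2rx7 lies on chromosome 5 from 122781942 to 122830400 with 13 exons in its canonical transcript, and P2rx4 from 122845541 to 122867803 with 12 exons, 15140 bp further on the same strand. The other members are on other chromosomes: P2ry6 on chromosome 7 (100585308 to 100624173, 3 exons), Entpd1 on chromosome 19 (40600810 to 40731585, 10 exons), Adora1 on chromosome 1 (134126948 to 134163579, 2 exons), Adora3 on chromosome 3 (105778174 to 105816242, 2 exons) and Ada on chromosome 2 (163565705 to 163592159, 12 exons). Sequence before a start site is shown for the P2rx7 and P2rx4 pair, because they lie side by side and their mean levels differed between APP/PS1 and WT in opposite directions, and for Adora1 and Adora3, the adenosine receptors, for which the same held. Each run covers the bases from 250 to 71 before a start site of the RefSeq promoter table (GRCm38.p6), matched here to GRCm39, read 5′ to 3′ on the strand of the gene. These windows overlap no annotated exon of the gene. Capitals mark the letters TGANTCA, the AP-1 consensus, on either strand.
P2rx7 (chr5:122781740-122781919, plus strand): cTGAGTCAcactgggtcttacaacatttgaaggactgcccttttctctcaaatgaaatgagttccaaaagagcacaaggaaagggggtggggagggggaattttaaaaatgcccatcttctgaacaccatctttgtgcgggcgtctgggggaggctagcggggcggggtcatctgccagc
P2rx4 (chr5:122845357-122845536, plus strand): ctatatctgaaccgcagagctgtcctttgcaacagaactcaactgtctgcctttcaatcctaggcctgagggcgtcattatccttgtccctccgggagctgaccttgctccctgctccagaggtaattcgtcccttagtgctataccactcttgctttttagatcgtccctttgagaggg
Adora1 (chr1:134163266-134163445, minus strand): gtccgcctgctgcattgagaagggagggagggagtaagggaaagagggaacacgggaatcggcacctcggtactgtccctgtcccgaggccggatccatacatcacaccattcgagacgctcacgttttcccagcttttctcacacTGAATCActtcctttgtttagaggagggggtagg
Adora3 (chr3:105811487-105811666, plus strand): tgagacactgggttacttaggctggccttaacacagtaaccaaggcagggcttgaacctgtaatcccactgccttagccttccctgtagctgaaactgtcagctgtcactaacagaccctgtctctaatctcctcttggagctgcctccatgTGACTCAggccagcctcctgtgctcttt

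Of the members, 6 had an entry in the promoter table, with 8 windows used after leaving out 1 of Adora1 that overlapped an exon. P2ry6 is only named here. The AP-1 letters were found in 3 of these 8 windows, each of another member (P2rx7 at -249, Adora1 at -104 and Adora3 at -98 from the start). They occurred in 4.93% of 32851 windows of the same length in the table, which were not screened for exon overlap. The P2rx4 window held no match. The letters GAGGAA, a PU.1 core, occurred in 1 of the 8 windows, of Entpd1, at -235 and -227, against 17.2% of all windows. The letters GGGCGG, an Sp1 box, occurred in P2rx7 at -90, against 21.1% of all windows, and neither CACGTG (3.69% of windows) nor TATAAA (8.37%) occurred in any of the members' windows, all searched on both strands. These matches describe letters in the windows.

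Levels can be compared between genes only per length, and here CPM was divided by the kb of annotated exon of each gene. In Control WT, Entpd1 was highest at 67.8 ± 8.66 CPM per kb (SD, n = 6), followed by P2ry6 at 38.1 ± 5.20, Adora3 at 31.2 ± 2.64, P2rx7 at 15.8 ± 4.37 and P2rx4 at 9.20 ± 2.48, with Ada at 0.375 ± 0.155 and Adora1 at 0.319 ± 0.0787. The neighbours P2ry6 and Adora3, P2rx7 and P2rx4, and Ada and Adora1 overlapped in this order, and the other neighbours did not. In Control APP/PS1, the order was Entpd1 (51.1 ± 7.30 CPM per kb), P2ry6 (29.4 ± 1.31), Adora3 (21.4 ± 1.46), P2rx4 (16.8 ± 2.50), P2rx7 (10.7 ± 1.67), Adora1 (2.50 ± 1.03) and Ada (0.207 ± 0.0918), so that P2rx4 and P2rx7, and Adora1 and Ada, had changed places, and only P2rx4 and P2rx7 overlapped. Slc11a2 KD WT had the order of Control WT, and Slc11a2 KD APP/PS1 that of Control APP/PS1.

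**Figure D1:**
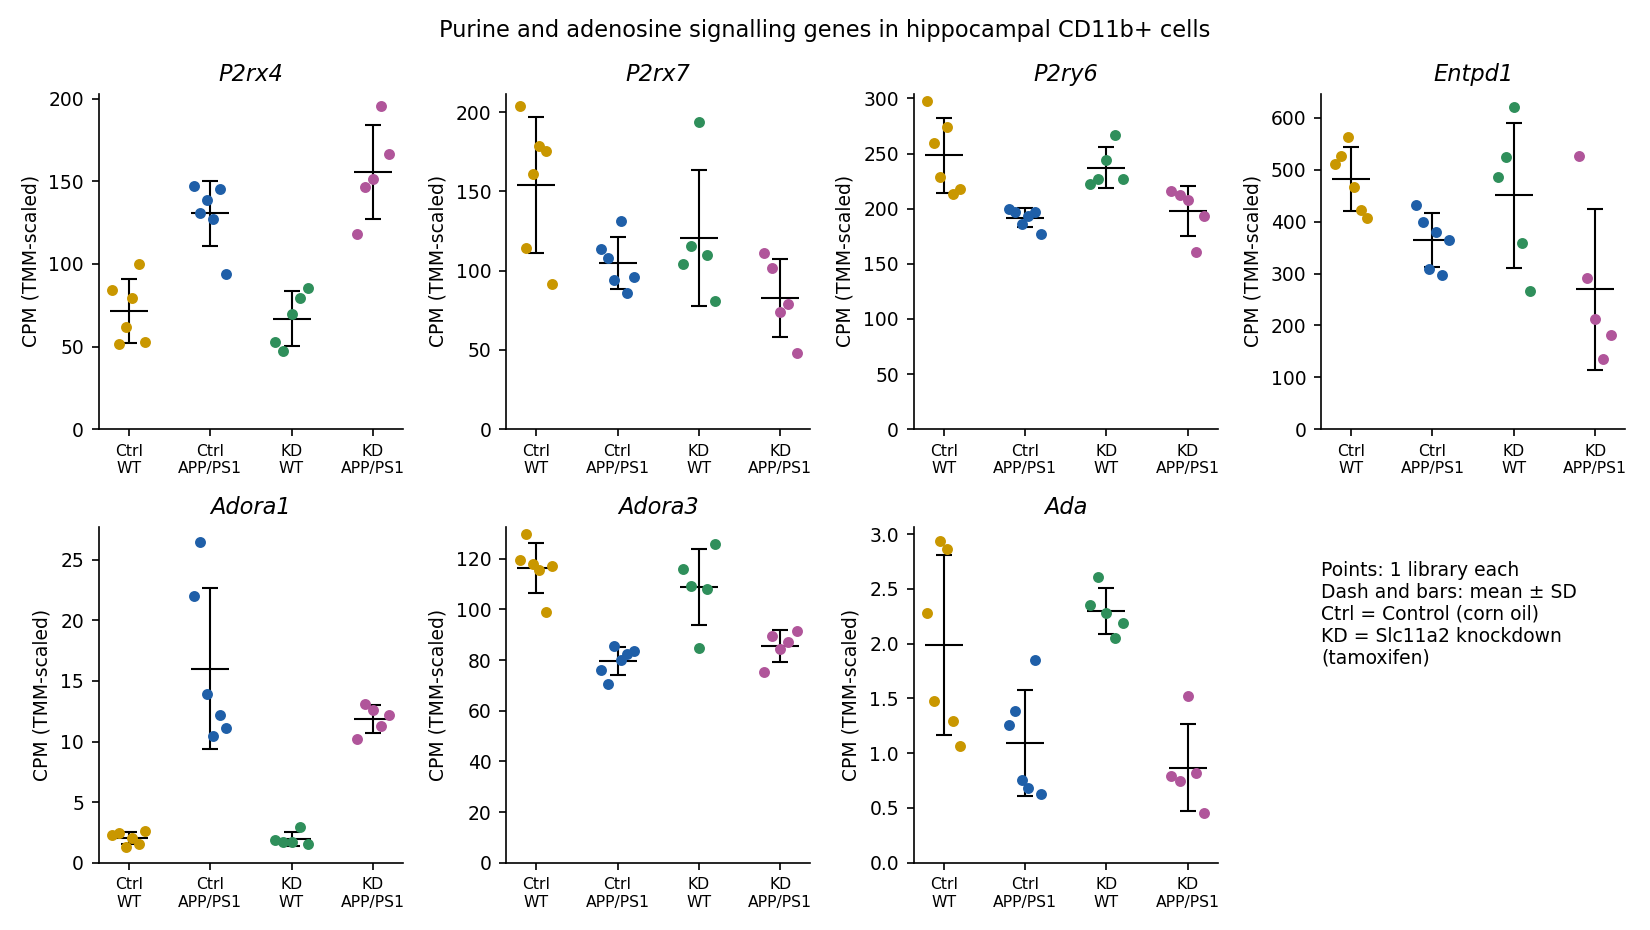
Level of each gene in every library, in CPM on a linear axis from 0, by group. Points are libraries, and the dash with bars is the mean ± SD (n = 6, 6, 5 and 5). Adora1 lies between 1.32 and 2.98 CPM in all WT libraries and between 10.2 and 26.5 CPM in all APP/PS1 libraries.

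The first comparison asked how these genes differed between APP/PS1 and WT microglia in Control mice. P2rx4 and Adora1 were higher in APP/PS1, P2ry6 and Adora3 were lower, and P2rx7, Entpd1 and Ada had lower means that did not pass the test. The members called were thus 2 higher and 2 lower of 7, where 5.99% of the 18759 genes tested were called higher and 4.48% lower (edgeR quasi-likelihood test, Benjamini-Hochberg adjusted p under 0.05). The median log2 fold change of the 7 was -0.41, against -0.02 over all genes tested.

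Of the ATP receptors, P2rx4 ran from 51.8 to 100.1 CPM in Control WT with a median of 70.5, and from 94.1 to 147 CPM in Control APP/PS1 with a median of 135. The groups overlapped by 1 library on each side, Control WT 0014 and Control APP/PS1 0017. The log2 fold change was 0.86 ± 0.17 (SE, adjusted p = 0.00161, edgeR), a fold of 1.82. P2rx7 had the lower mean in APP/PS1, with 91.5 to 204 CPM (median 168) in Control WT and 85.8 to 131 CPM (median 102) in Control APP/PS1, and its spread in WT was wide. Its log2 fold change of -0.56 ± 0.21 missed the threshold (adjusted p = 0.102, edgeR) with a 95% interval from -0.997 to -0.115, and it was called by DESeq2 (adjusted p = 0.0374), by limma voom (0.0214), and by edgeR with only the groups compared (0.0346) and without Control WT 0015 (0.0464).

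The ratio of P2rx4 to P2rx7 reads compares the pair within each library and so does not depend on scaling. It ran from 0.383 to 0.580 in Control WT (0.474 ± 0.0823, SD, n = 6) and from 0.969 to 1.69 in Control APP/PS1 (1.27 ± 0.282, n = 6). P2rx7 had the more reads in every Control WT library, while in Control APP/PS1 P2rx4 had the more reads in 4 of 6 libraries, with 0013 and 0017 just under 1.

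**Figure D2:**
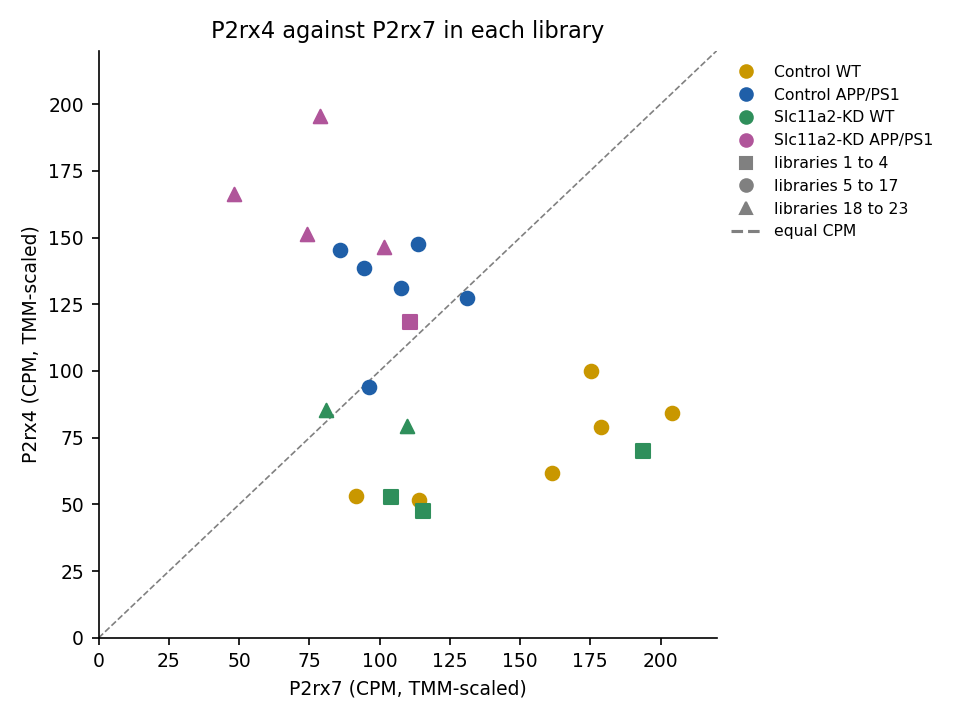
P2rx4 against P2rx7 in each of the 22 libraries, both in CPM on linear axes, coloured by group, with the shape giving the range of library numbers and the dashed line equal CPM. Every WT library except Slc11a2 KD WT 0022 lies below the line, and all Slc11a2 KD APP/PS1 libraries lie above it.

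The UDP receptor P2ry6 fell in APP/PS1. It ran from 213 to 298 CPM (median 244) in Control WT and from 177 to 199.7 CPM (median 195) in Control APP/PS1, without overlap between the groups. Its log2 fold change was -0.38 ± 0.097 (adjusted p = 0.0123, edgeR). Entpd1, the CD39 ectonucleotidase and the most abundant of the 7 per kb, ran from 406 to 563 CPM (median 489) in Control WT and from 298 to 433 CPM (median 372) in Control APP/PS1. These groups overlapped, and the log2 fold change of -0.41 ± 0.24 did not pass (adjusted p = 0.313, edgeR, 95% interval from -0.90 to 0.08), although it did with limma voom (0.0498) and in edgeR with only the groups compared (0.0156).

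The adenosine receptors moved in opposite directions. Adora1, the A1 receptor, ran from 1.32 to 2.60 CPM (median 2.17) in Control WT, which is 47 to 100 reads per library, and from 10.5 to 26.5 CPM (median 13.05) in Control APP/PS1, or 445 to 1486 reads. All APP/PS1 libraries lay above all WT libraries, and 0005 and 0007 were the highest, at 22.0 and 26.5 CPM. The log2 fold change was 2.97 ± 0.26 (adjusted p = 2.22e-08, edgeR), a fold of 7.83. Of the annotated exon bases of Adora1, 52.4% are shared with Mybph on the other strand, and the strand setting of the counting is not given in the sources used here. Mybph itself was at most 3.31 CPM in any library used.

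Adora3, the A3 receptor, ran from 99.2 to 130 CPM (median 118) in Control WT and from 70.7 to 85.4 CPM (median 81.2) in Control APP/PS1, again without overlap. Its log2 fold change was -0.55 ± 0.095 (adjusted p = 0.000326, edgeR). It shares 22.1% of its exon bases with other genes on the same strand, 18.0% with Gm53046, not analysed here, and 4.13% with Tmigd3, which was at most 0.579 CPM. Adora3 remained far above Adora1 per kb in both groups. Ada, which removes adenosine, had few reads, with 36 to 123 reads per library in Control WT (1.06 to 2.94 CPM, median 1.88) and 26 to 97 reads in Control APP/PS1 (0.631 to 1.85 CPM, median 1.01). The groups overlapped, and the log2 fold change of -0.86 ± 0.39 did not pass (adjusted p = 0.172, edgeR, 95% interval from -1.66 to -0.05), although it did with limma voom (-0.99, adjusted p = 0.0444). Of the exon bases of Ada, 20.2% are shared with Pkig on the other strand, which was at 124 ± 9.33 CPM in Control WT and 97.9 ± 12.3 CPM in Control APP/PS1.

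**Figure D3:**
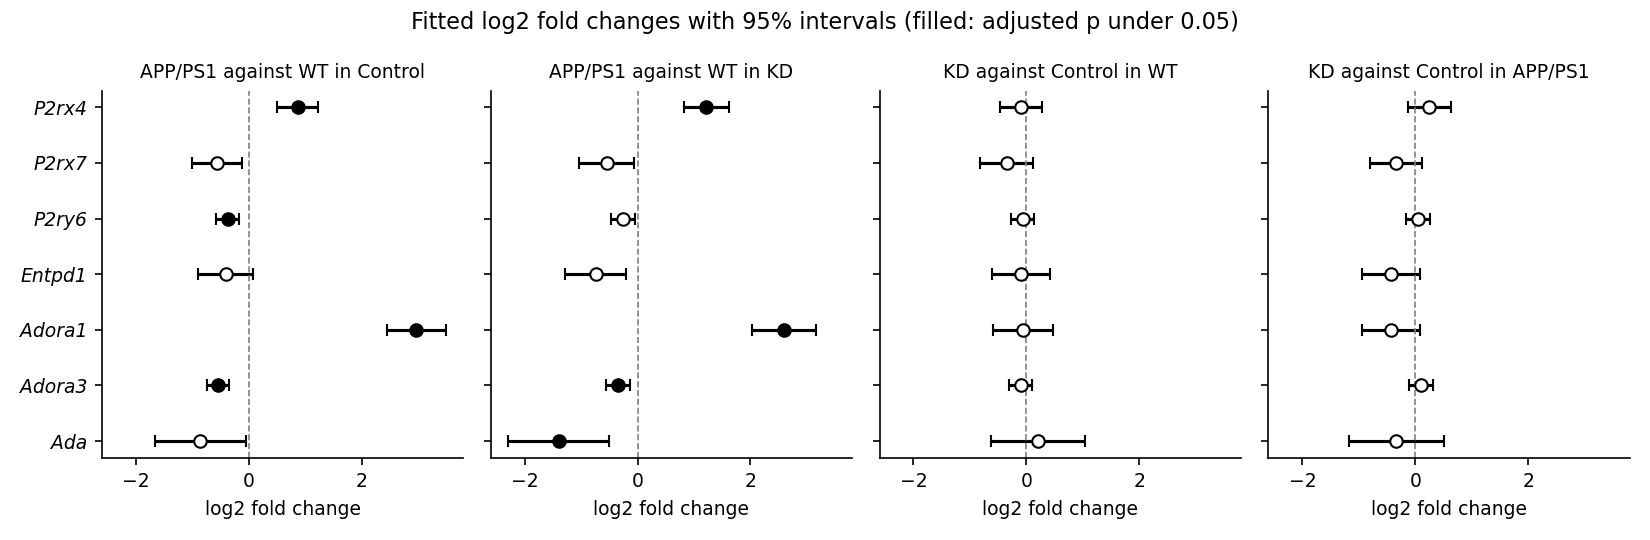
Fitted log2 fold change of each gene in 4 comparisons, with 95% intervals, filled where the edgeR adjusted p was under 0.05. In both comparisons of APP/PS1 with WT, P2rx4 and Adora1 lie above 0 and the other 5 genes below, and no point is filled in the comparisons of Slc11a2 KD with Control.

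The same comparison between the Slc11a2 KD groups used other libraries, and the 7 genes had the same signs. The members called were again 2 higher (P2rx4 and Adora1) and 2 lower (Adora3 and Ada), where 9.77% of genes tested were called higher and 6.41% lower, and the median log2 fold change was -0.35 against -0.07 over all genes. P2rx4 was 52.7, 47.4, 69.9, 79.5 and 85.3 CPM in Slc11a2 KD WT libraries 0001, 0002, 0003, 0019 and 0022, and 118, 146, 151, 196 and 166 CPM in Slc11a2 KD APP/PS1 libraries 0004, 0018, 0020, 0021 and 0023. The groups did not overlap, and its log2 fold change was 1.22 ± 0.19 (adjusted p = 0.000132, edgeR). In the same order of libraries, Adora1 was 1.86, 1.72, 1.73, 2.98 and 1.55 CPM in WT and 10.2, 13.1, 12.6, 11.3 and 12.2 CPM in APP/PS1. All APP/PS1 libraries were above all WT libraries and close to each other, with a log2 fold change of 2.59 ± 0.28 (adjusted p = 7.72e-07, edgeR).

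Adora3 was 116, 109, 85.0, 108 and 126 CPM in Slc11a2 KD WT and 75.2, 89.5, 84.4, 87.1 and 91.6 CPM in Slc11a2 KD APP/PS1. The groups overlapped only through WT library 0003, and the log2 fold change was -0.35 ± 0.10 (adjusted p = 0.0251, edgeR). Ada was 2.36, 2.61, 2.28, 2.05 and 2.19 CPM in Slc11a2 KD WT and 0.793, 0.750, 1.53, 0.821 and 0.450 CPM in Slc11a2 KD APP/PS1, where as few as 14 reads were counted in a library. Its groups did not overlap, with a log2 fold change of -1.40 ± 0.43 (adjusted p = 0.0285, edgeR). The calls of Adora3 and Ada depended on single libraries: without Slc11a2 KD WT 0001 the adjusted p was 0.0645 for Adora3 and 0.0512 for Ada, and without 0002 it was 0.0513 and 0.0620, which left 2 members called. Adora3 also lost its call without Slc11a2 KD APP/PS1 0020 (adjusted p = 0.0543), and Ada lost it without Slc11a2 KD WT 0003 or without Slc11a2 KD APP/PS1 0018, 0021 or 0023 (adjusted p from 0.0513 to 0.0741, edgeR). Both calls were lost with only the groups compared in the fit (adjusted p = 0.182 for Adora3 and 0.0891 for Ada), and that of Ada also with libraries 18 to 23 as a covariate (0.0831) or as the only knockdown libraries (0.281, edgeR).

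P2ry6 was 222, 227, 244, 267 and 227 CPM in Slc11a2 KD WT and 216, 212, 208, 161 and 194 CPM in Slc11a2 KD APP/PS1. The groups did not overlap, although by a narrow margin, and the log2 fold change of -0.26 ± 0.11 did not pass (adjusted p = 0.0935, edgeR), although it did with DESeq2 (0.0439). P2rx7 was 104, 115, 194, 110 and 80.8 CPM in Slc11a2 KD WT and 111, 102, 74.1, 78.7 and 48.1 CPM in Slc11a2 KD APP/PS1. Its groups overlapped, with a log2 fold change of -0.55 ± 0.23 (adjusted p = 0.112, edgeR, 95% interval from -1.03 to -0.06). With single libraries left out, it passed in the edgeR fits without Slc11a2 KD WT 0022 (adjusted p = 0.0468) and without Slc11a2 KD APP/PS1 0004 (adjusted p = 0.0442). The P2rx4 to P2rx7 ratio was 0.506, 0.411, 0.360, 0.725 and 1.06 in Slc11a2 KD WT and 1.07, 1.44, 2.04, 2.48 and 3.45 in Slc11a2 KD APP/PS1. The highest WT library and the lowest APP/PS1 library thus lay side by side.

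Entpd1 was 485, 523, 621, 358 and 267 CPM in Slc11a2 KD WT and 527, 292, 212, 135 and 181 CPM in Slc11a2 KD APP/PS1. Library 0004 was the highest of its group by far and overlapped WT, and the log2 fold change of -0.74 ± 0.26 was just outside the threshold (adjusted p = 0.0535, edgeR). Without 0004 it was -1.14 (adjusted p = 0.000535), and Entpd1 also passed without Slc11a2 KD WT 0019 (adjusted p = 0.0463) or 0022 (adjusted p = 0.0152). It was called by DESeq2 (adjusted p = 0.0150), by edgeR with DESeq2's size factors (0.0431) and by limma voom (-0.96, 0.00174), while with libraries 18 to 23 as a covariate it was -0.40 and did not pass. No member was called for the interaction of knockdown and APP/PS1, nor was any of the genes tested (0%, smallest adjusted p = 0.544, edgeR), and 0 members had an unadjusted p under 0.05, against 9.08% of genes. DESeq2 called 18 genes higher and 7 lower and limma voom 1, with 0 members in both. The interval of the interaction was from -0.18 to 0.88 for P2rx4, from -1.11 to 0.36 for Adora1 and from -1.06 to 0.39 for Entpd1 on the log2 scale.

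The comparisons of Slc11a2 KD with Control asked whether knockdown changed these genes. In WT, 0 members were called, as were 0% of the 18759 genes, with a smallest adjusted p of 0.715 (edgeR). The unadjusted p was under 0.05 for 0 members and 5.92% of genes, and DESeq2 called 6 genes higher and 4 lower and limma voom 1, with 0 members in both. The estimate furthest from 0 was that of P2rx7, at -0.35 (95% interval from -0.82 to 0.11), and the most narrowly bounded were those of P2ry6 (-0.28 to 0.14) and Adora3 (-0.31 to 0.11). In APP/PS1, 0 members and again 0% of genes were called (smallest adjusted p = 0.205, edgeR), although 20.6% of genes had an unadjusted p under 0.05, which 0 members did. These counts of 0 rested on 1 library: without Slc11a2 KD APP/PS1 0004, edgeR called 1373 genes higher and 1696 (9.07%) lower, among the latter 1 member, Entpd1. DESeq2 called 449 genes higher and 131 lower in this comparison and limma voom 2 lower, with 0 members in both. The intervals were -0.12 to 0.63 for P2rx4, -0.81 to 0.12 for P2rx7, -0.16 to 0.26 for P2ry6, -0.95 to 0.08 for Entpd1, -0.95 to 0.08 for Adora1, -0.10 to 0.31 for Adora3 and -1.18 to 0.51 for Ada.

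Library numbers separate knockdown from Control. All Control libraries are numbered 5 to 17, and the Slc11a2 KD libraries 1 to 4 and 18 to 23, so a run of numbers and knockdown cannot be fully told apart. The labels do not say what the number stands for. Within Slc11a2 KD WT, Entpd1 was 543 ± 70.3 CPM (SD, n = 3) in libraries 1 to 3 and 312 ± 64.7 CPM (n = 2) in libraries 19 and 22, and within Slc11a2 KD APP/PS1 it was 527 CPM in 0004 and 205 ± 65.8 CPM (n = 4) in the others. P2rx7 followed, at 138 ± 48.9 and 95.2 ± 20.3 CPM in Slc11a2 KD WT, while P2rx4 was higher in the later numbers, at 56.7 ± 11.7 and 82.4 ± 4.11 CPM. Adora1, Adora3, P2ry6 and Ada differed by at most 0.35 on the log2 scale between the runs of a group. Marker levels moved with these runs. The summed level of 8 of 8 genes of the dissociation response, all above 0, was 6333 to 8290 CPM in knockdown libraries 1 to 4 and 3818 to 6122 CPM in 18 to 23, and choroid plexus markers were 2.05 to 21.5 and 23.2 to 365 CPM. Their part in the levels of Entpd1, P2rx7 and P2rx4 was not tested. When only Slc11a2 KD libraries 18 to 23 were compared with Control, Entpd1 was lower in APP/PS1 with a log2 fold change of -0.85 (adjusted p = 0.00437, edgeR), in a fit that called 12.7% of genes tested lower. Without 0004 alone it was -0.83 (adjusted p = 0.0202), where 9.07% of genes were called lower. In both fits 1 of 7 members was called, a share close to that background. With libraries 18 to 23 as a covariate the Entpd1 value was 0.28 (adjusted p = 1). No Control library is numbered 18 to 23, so that fit took the run difference from the knockdown groups alone. Libraries 1 to 4 hold 1 APP/PS1 library, 0004, so this is not a value corrected for the run. Over all alternatives tried for Entpd1 in Slc11a2 KD against Control in APP/PS1, the adjusted p ran from 0.00437 to 1.

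Within libraries 18 to 23 alone, the log2 ratio of mean CPM of APP/PS1 (n = 4) over WT (n = 2) was 1.00 for P2rx4, -0.33 for P2rx7, -0.35 for P2ry6, -0.61 for Entpd1, 2.44 for Adora1, -0.41 for Adora3 and -1.26 for Ada. These had the signs of the full comparison. Within libraries 1 to 4, with 1 APP/PS1 library, they were 1.06, -0.31, -0.09, -0.04, 2.52, -0.46 and -1.61 in the same order. The difference in Entpd1 was thus close to 0 in that run.

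**Figure D4:**
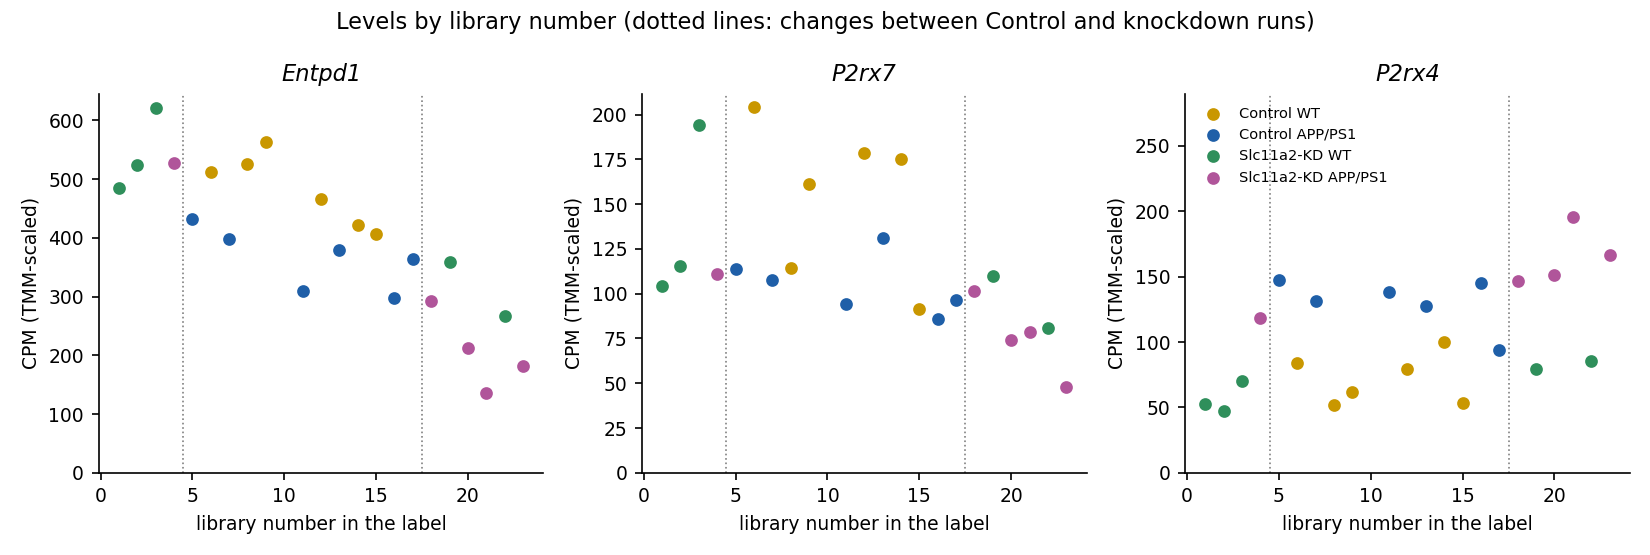
Level of Entpd1, P2rx7 and P2rx4 (CPM, linear axes from 0) against the library number in the label, coloured by group, with dotted lines where the numbers change between knockdown and Control. Entpd1 is between 485 and 621 CPM in libraries 1 to 4 and between 135 and 358 CPM in libraries 18 to 23, with the Control libraries between 298 and 563 CPM.

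Around the members, 53 of 62 genes of the wider purinergic pathway were in the table and tested. In Control, APP/PS1 called 4 of them higher and 8 lower, where 5.99% of all genes tested were called higher and 4.48% lower, and in Slc11a2 KD 10 higher and 7 lower, against 9.77% and 6.41% of all genes. The counts of the smaller groups of genes that follow have the same background. Of the 53, 0 were called in the comparisons of Slc11a2 KD with Control and in the interaction, where 0% of all genes tested were called (edgeR). The fit without Slc11a2 KD APP/PS1 0004 was not examined for these 53 genes. Among the other P2X receptors, 1 of 3 tested was called, P2rx1, which fell from 15.8 ± 1.73 to 7.04 ± 1.53 CPM in Control (log2 fold change -1.17, adjusted p = 8.24e-05) and from 17.3 ± 4.21 to 6.90 ± 1.502 CPM in Slc11a2 KD (-1.32, adjusted p = 6.98e-05, edgeR). Among the other P2Y receptors, 2 of 6 tested were called, both lower. The ADP receptor P2ry12, a homeostatic microglial gene, fell from 5351 ± 831 to 2709 ± 288 CPM in Control (-0.98, adjusted p = 8.70e-07). The ADP receptor P2ry13 fell from 1496 ± 230 to 854 ± 53.3 CPM (-0.81, adjusted p = 3.37e-05). The remaining adenosine receptors, Adora2a and Adora2b, were below 1 CPM in the mean of every group, at most 0.975 CPM, and neither was called.

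Of the other ectonucleotidases, 7 were tested. Enpp1, which hydrolyses ATP to AMP and pyrophosphate, rose from 10.9 ± 2.40 to 24.0 ± 5.55 CPM in Control (1.13, adjusted p = 0.000683) and from 10.7 ± 2.91 to 17.9 ± 4.66 CPM in Slc11a2 KD (0.75, adjusted p = 0.0279). Alpl, an alkaline phosphatase, fell in Control from 4.59 ± 2.32 to 1.24 ± 0.615 CPM (-1.89, adjusted p = 0.0213), as did Entpd6 from 12.9 ± 1.81 to 8.29 ± 1.44 CPM (-0.64, adjusted p = 0.0231, edgeR). Nt5e, which encodes CD73 and makes adenosine from AMP outside the cell, was at most 0.104 CPM in the mean of any group. The partner enzyme of Entpd1 in that route was thus barely detected in these libraries.

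Of the 6 nucleoside transporters tested, Slc29a1 (ENT1) fell from 187 ± 8.35 to 134 ± 8.45 CPM in Control (-0.49, adjusted p = 0.00120) and Slc28a2 (CNT2) from 2.28 ± 0.464 to 0.546 ± 0.518 CPM (-2.06, adjusted p = 0.0444), and Slc29a3 (ENT3, a lysosomal transporter) was called in Slc11a2 KD, at 421 ± 84.3 and 241 ± 92.3 CPM (-0.80, adjusted p = 0.00749). Of 13 genes of purine handling inside the cell, 3 were called higher and 1 lower in Control. Pnp, which cleaves inosine and so acts next after Ada, fell from 143 ± 12.5 to 74.4 ± 12.4 CPM (-0.95, adjusted p = 3.56e-06). Ahcy, which releases adenosine from S-adenosylhomocysteine, rose from 17.8 ± 2.67 to 30.6 ± 3.18 CPM (0.78, adjusted p = 0.000365), and Aprt, which salvages adenine, rose from 35.9 ± 8.46 to 58.6 ± 9.65 CPM (0.71, adjusted p = 0.0140). In Slc11a2 KD, 5 were called higher and 2 lower, led by the AMP deaminase Ampd3 (-1.28, adjusted p = 0.00172), Aprt (1.16, adjusted p = 0.000400) and the nucleotidase Nt5c (0.98, adjusted p = 0.00584, edgeR).

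Genes of ATP release were not called in Control (0 of 6), and in Slc11a2 KD the channel Panx1 rose from 11.2 ± 2.697 to 19.8 ± 4.796 CPM (0.82, adjusted p = 0.00310) and the volume-regulated channel subunit Lrrc8a fell from 5.72 ± 1.66 to 3.09 ± 1.02 CPM (-0.89, adjusted p = 0.0226). Of 10 genes of P2X7 and inflammasome signalling (sensor, adaptor, caspase, cytokines and potassium channels among them), 0 were called in Control and 3 in Slc11a2 KD, all higher. The cytokine Il1b went from 60.7 ± 39.9 to 307 ± 277 CPM (2.34, adjusted p = 0.0306), with an SD nearly as large as the mean, the adaptor Pycard from 199 ± 65.5 to 321 ± 94.8 CPM (0.69, adjusted p = 0.0150) and the potassium channel Kcnk13 from 138 ± 19.8 to 180 ± 29.5 CPM (0.38, adjusted p = 0.0325, edgeR). In Control the Il1b values were 109 ± 91.7 and 404 ± 250.2 CPM (adjusted p = 0.0685). The inflammasome sensor Nlrp3 was 134 ± 73.3 and 149 ± 90.1 CPM in Control (adjusted p = 0.882) and 140 ± 93.1 and 68.3 ± 30.3 CPM in Slc11a2 KD (-1.03, adjusted p = 0.122, edgeR), and P2rx7 had a lower mean in APP/PS1 in both comparisons. That a gene was called in one comparison and not in the other does not show that the effects differ. The interaction called 0 of these genes and 0% of all genes tested (edgeR).

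**Figure D5:**
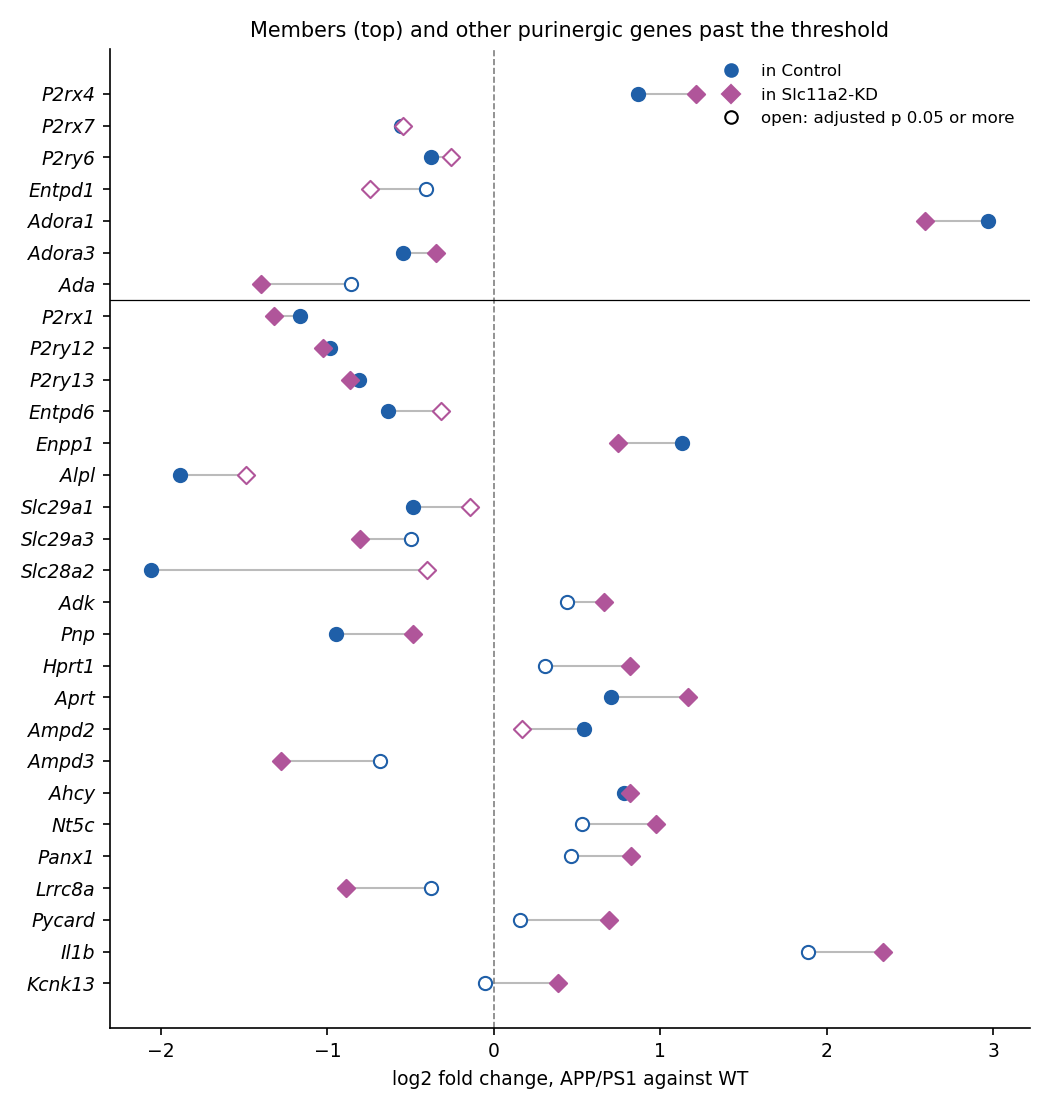
Log2 fold change of APP/PS1 against WT in Control (circles) and in Slc11a2 KD (diamonds) for the 7 members, above the line, and for the 22 other pathway genes with a mean of at least 1 CPM called in either comparison. Filled symbols mark an edgeR adjusted p under 0.05. Of the members, only P2rx4 and Adora1 lie to the right of 0, and P2ry12, P2ry13 and P2rx1 lie to the left in both comparisons.

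The genes most like each member over the 22 libraries were named by Pearson's r of log2 CPM among 11888 genes, as a description without a p, since libraries share genotype and library run. P2rx4 was most like Dhrs3 (0.96), Lgals3 (0.95) and Pgk1 (0.95). With the group means subtracted, so that only the spread within groups counted, P2rx4 was most like Spp1 (0.85), Lgals3 (0.83) and Fabp5 (0.82), genes known from disease-associated microglia. Adora1 was most like Galc (0.97), Nceh1 (0.97) and Ank (0.96), and within groups the highest r of any gene was 0.74. Adora3 was most like BC035044 (0.95), Otulinl (0.91) and Cmtm6 (0.91), and P2ry6 was most like Rab39 (0.91), Rgmb (0.88) and Scamp2 (0.88).

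P2rx7 was most like Hykk (0.88), Gm10509 (0.87) and Rnf145 (0.86), and within groups Cd86 (0.88), Ttyh2 (0.85) and Slfn5 (0.85). Entpd1 was most like Qki (0.98), Nuak1 (0.98) and Ulk2 (0.97), and within groups its r still reached 0.97 with Nucb1 and 0.96 with Cyfip1 and Rptor. Of the 7, Entpd1 thus had the closest partners within groups, and it was also the member that differed most between the runs of library numbers. Ada, with its few reads, was most like Cdca7 (0.83), Tmem170b (0.83) and Gpx3 (0.81). Between members and within groups, P2rx7 went with Entpd1 (r = 0.62) and against Adora3 (-0.66), P2rx4 went against Entpd1 (-0.52), and the neighbours P2rx4 and P2rx7 had an r of 0.14.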

How the data were processed

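RNA of 23 samples was sequenced with poly(A) selection and paired-end reads. The authors trimmed the reads (Trim Galore 0.6.7, per the labels), aligned them to mm39 and counted reads on genes with STAR, and deposited raw counts for 18876 genes. A second deposited table of normalized values was not used. Samples were grouped by their labels, and no per-sample column was unused (0). The removed Control APP/PS1 library was taken to be 0010, which is absent from the study's heat map. Genes that reached 5 counts in 3 samples or more (18759) were scaled by TMM and tested two-sided with edgeR 4.0.16 under R 4.3.3 (quasi-likelihood test, all 4 groups in 1 fit), with Benjamini-Hochberg adjustment over all genes and a threshold of 0.05. The standard error was the absolute log2 fold change over the square root of F, and 95% intervals used its total degrees of freedom, residual plus prior. With totals of 31128643 to 54872491 counts, counting precision was lowest for Ada and Adora1. The p-values measure the spread between samples, which the study calls biological replicates. Log2 CPM used a prior count of 2. Alternatives were DESeq2 1.42.0, edgeR with its size factors, sample-weighted limma voom 3.58.1, no filter, only the groups compared, 0010 kept, libraries 18 to 23 as a covariate or as the only knockdown libraries, Control WT 0012 and 0015 left out, and each library left out. The steps were tested on simulated data. Gene positions are from GENCODE M39 on GRCm39. The members and pathway lists were chosen with earlier results of these data known. Pathway genes named were called genes averaging 1 CPM or more, at most the 3 largest changes per list and comparison, and the 3 most alike genes per member. Nt5e, Adora2a, Adora2b and Nlrp3 fall outside this rule and were chosen after their values were seen. Hprt was matched by its older symbol Hprt1.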

Additional observations from a re-analysis of the deposited data

Results flagged for a closer look

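Among the 28 combinations of gene and group checked, 1 held a library far from the others. Adora1 was 2.98 CPM in Slc11a2 KD WT 0019, where the next highest library of that group was at 1.86 CPM, a gap of 0.782 of the group's range. Chance flags about 1 in 20 groups. Library 0019 was below every APP/PS1 library, and without it the log2 fold change of APP/PS1 against WT in Slc11a2 KD was 2.79. In 0019, choroid plexus markers summed to 365 CPM, neutrophil markers to 502 CPM (94.7 to 121 CPM in the others of its group) and astrocyte markers to 478 CPM (109 to 162 CPM in the others), each the highest of its group. Their part in the value was not tested.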

How the results depend on the processing

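No value called in the comparisons as reported changed direction under the alternatives run. Entpd1 in Slc11a2 KD against Control in APP/PS1, not called there, was -0.85 and -0.83 in the fits that called it and 0.28 with libraries 18 to 23 as a covariate. That covariate, whose shift comes from knockdown libraries alone, also turned the sign of other values not called in this comparison, P2rx4 (0.25 to -0.17), P2rx7 (-0.34 to 0.07) and Adora3 (0.10 to -0.06). Further values not called, all in Slc11a2 KD against Control or in the interaction, turned sign under this or another setting. The count of members called in Control APP/PS1 against WT was 4, rose to 7 with limma voom, 6 with only the groups compared in the fit and 5 with DESeq2, and was between 4 and 5 when each library was left out. In Slc11a2 KD it was 4, rose to 6 with DESeq2 and 5 with its size factors in edgeR or with limma voom, fell to 2 with only the groups compared, where Adora3 had an adjusted p of 0.182 and Ada of 0.0891, and ran from 2 to 6 when each library was left out. P2rx4 and Adora1 were called in both comparisons under all alternatives run. Ada in Slc11a2 KD also lost its call with libraries 18 to 23 as a covariate (adjusted p = 0.0831) and with them as the only knockdown libraries (0.281), where 4 of 10 knockdown libraries were dropped. For Slc11a2 KD against Control in APP/PS1, the count was 0, became 1 (Entpd1) with only knockdown libraries 18 to 23, and was 0 to 1 when each library was left out. In the fits with 1, 12.7% and 9.07% of genes were called lower. In WT and for the interaction it stayed at 0. The cause was not tested. Genes called over the whole table differed by over 1.5 times: in Slc11a2 KD against Control in APP/PS1, DESeq2 called 449 higher and 131 lower and edgeR 0, but edgeR called 1373 higher and 1696 lower without Slc11a2 KD APP/PS1 0004 and 1691 higher and 2329 lower with only knockdown libraries 18 to 23, and in Control APP/PS1 against WT limma voom called 2079 higher and 1342 lower, and edgeR with only the groups compared 1974 and 1267, against 1124 and 841, where DESeq2 called 1238 higher and 1306 lower. In Slc11a2 KD limma voom called 2467 higher and 1947 lower, the fit of only the groups compared 738 higher and 303 lower, the covariate for libraries 18 to 23 1121 and 652, those as the only knockdown libraries 478 and 383, against 1832 and 1202, and with single libraries left out the counts ran from 1248 (Slc11a2 KD APP/PS1 0021) to 2475 (Slc11a2 KD WT 0022) higher and from 728 (Slc11a2 KD WT 0002) to 2352 (Slc11a2 KD APP/PS1 0004) lower. Without Control WT 0012 and 0015, 785 and 497 genes were called in Control. No paired analysis was possible because the labels name no litter or pair of mice. Depth limits Ada, with 14 to 123 reads per library.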
